A study of Mus musculus with 20 samples.

Results

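The centromere, kinetochore and spindle checkpoint module comprised 40 of the 16810 genes measured in sorted spinal microglia. It was chosen by name: 17 gene symbols made of Cenp and 1 further letter, and 23 symbols of kinetochore, checkpoint and chromosome segregation genes. The symbols set the membership, with no threshold on measured values beyond the authors' count filter (at least 10 counts in at least 2 replicates). RNA was sequenced from eGFP-high cells that had been isolated by cell sorting from the cords of adult male CX3CR1+/eGFP mice. The 20 samples came from non-injured mice (NI, 3 samples), from mice with a lateral hemisection of the thoracic cord (HS) and from mice with a full transection (FT), killed 72 h, 1 week or 2 weeks later. HS at 1 week had 2 samples and every other injured group had 3. All groups, NI included, carried 1 Cx3cr1 allele replaced by eGFP, which also labels monocytes and macrophages, and injured tissue was taken around the lesion. The methods count more mice than libraries, so animals were pooled, and p-values measure only the spread between these samples.

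The kinetochore is the protein structure that joins each chromosome to the mitotic spindle. It is built on centromeric chromatin marked by the histone variant CENP-A, on which an inner layer of CENP proteins recruits the microtubule-binding NDC80 complex. The spindle checkpoint holds anaphase back until every kinetochore is attached, after which CDC20 activates the anaphase-promoting complex, securin is destroyed and separase opens cohesin. Many of these genes are transcribed mainly in the G2 and M phases, whereas adult microglia divide rarely in the uninjured cord.

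Expression is given as CPM, the count per 1000000 reads of the library size that the authors scaled to, a unit inferred from values that are whole multiples of 1 step per sample, and a change is a log2 fold change on log2(CPM + 0.5) with its standard error (SE). A gene was called when its adjusted p was under 0.05 (limma, Benjamini-Hochberg over 16810 genes) and the change was at least 2-fold. Between 3872918 and 34099232 reads per sample lay on the measured genes, so that 1 read was worth 0.0330 to 0.292 CPM. All 12 microglia markers examined were expressed, and their summed level was 24633 to 34625 CPM in NI and 19890 to 40853 CPM after FT at 1 week, the widest range of any group. At 72 h 1 of the 12 was called higher and 1 lower after each lesion. Fcrls averaged 1713 CPM in NI, 4878 after HS and 5248 after FT, and Tmem119 averaged 1239, 537 and 566 CPM. The summed level of 10 monocyte markers was higher than in NI at 72 h after both lesions. It was 91.8 to 108 CPM in NI, 658 to 835 CPM after HS at 72 h and 603 to 1377 CPM after FT at 72 h, with 4 and 6 of its 10 genes called higher. Of these, Ccr2 averaged 17.99 CPM in NI, 72.0 after HS and 97.1 after FT, and Fn1, also made by macrophages, averaged 12.9, 546 and 597 CPM and made up most of the 72 h sums. Ly6c1 averaged 14.8 CPM in NI, 10.4 after HS and 12.3 after FT, and Vcan averaged 3.15, 2.54 and 3.64 CPM. At 1 and 2 weeks the sum of the monocyte markers was 238 to 530 CPM, still above the NI range. The gene calls of the other marker lists at 72 h, as higher and lower, were 0 and 1 in HS, then 0 and 0 in FT, for 9 neutrophil genes, 0 and 0, then 1 and 0, for 9 lymphocyte genes, and 0 and 4 after each lesion for 10 neuron genes. For 10 astrocyte genes they were 1 and 3 in HS, then 2 and 3 in FT, with 1 and 2, then 1 and 1, for 10 oligodendrocyte genes, and 0 for 3 erythroid and 9 vascular genes. Their part in the results was not tested. In sorted bulk RNA, more cells that express a gene and more RNA per cell cannot be told apart.

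At 72 h most of the module was higher than in NI after both lesions. After HS, 31 of the 40 members were called higher and 0 lower, where 9.08% of all genes were called higher and 4.31% lower. After FT, 29 were called higher and 1 lower, against 8.14% and 4.09% of all genes. The 29 members called higher after FT were all called after HS (100% of the FT list, 93.5% of the HS list), although both comparisons share the NI samples. Over these 29 members the fold change ran from 2.44 to 20.5 after HS and from 2.24 to 18.7 after FT. Leaving out HS replicate 1 gave 30 members higher, and leaving out FT replicate 1, the library with the highest monocyte sum, gave 28. The median log2 fold change of all 40 members was 2.61 after HS and 2.58 after FT, beside −0.11 and −0.09 over all genes. All 3 injured samples lay above all 3 NI samples for 36 members after HS (24.0% of all genes) and 34 after FT (22.2%).

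**Figure D1:**
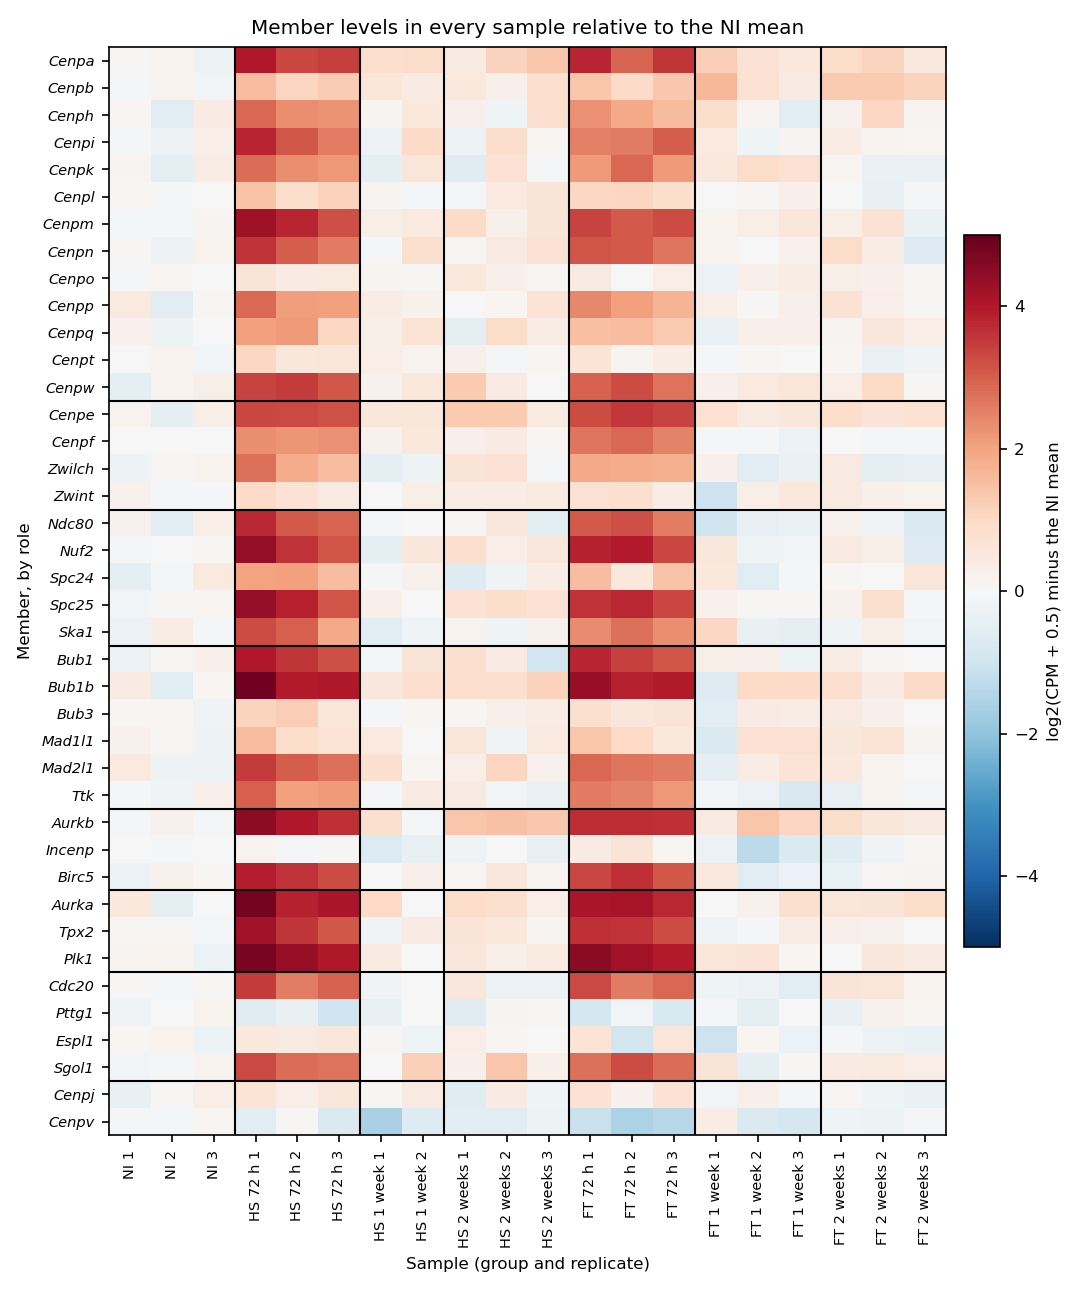
Level of the 40 members (rows, ordered by role, with lines between roles) in each of the 20 samples (columns), as log2(CPM + 0.5) minus the mean of the 3 NI samples. The 3 HS and 3 FT samples at 72 h are red for most members, the samples at 1 and 2 weeks are close to NI, and Pttg1 and Cenpv are blue in most of the 72 h samples.

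Promoter sequence is shown for 7 members because the module moved together and because 2 short elements are known from promoters of G2 and M phase genes: the cell cycle genes homology region (CHR, letters TTTGAA) and the CCAAT box (letters CCAAT). Both were searched on both strands in RefSeq promoters (GRCm38.p6) from 250 bases before to 50 bases after each start, which were found for 34 of the 40 members (38 promoters). TTTGAA lay in 15 of the 38 member promoters (39.5%) and in 12.95% of the 15467 promoters of genes in the expression table. CCAAT lay in 25 of the 38 (65.8%) and in 37.3%, and both lay in 14 of the 38 (36.8%) and in 5.14%. Both lay in 10 of 26 promoters (38.5%) of members called higher after both lesions. For members called higher after neither, both lay in 3 of 9 (33.3%). Overlapping promoters of Bub3, which share the same matches, are counted separately in the 3 and in the member counts above. The 120 bases before the start are printed 5′ to 3′ on the gene's strand, with the letters of both elements, or of their reverse complements TTCAAA and ATTGG, in capitals.
Cdc20: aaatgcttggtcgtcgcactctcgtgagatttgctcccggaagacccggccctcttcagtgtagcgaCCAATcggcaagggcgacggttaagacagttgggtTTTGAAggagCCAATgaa
Cenpn: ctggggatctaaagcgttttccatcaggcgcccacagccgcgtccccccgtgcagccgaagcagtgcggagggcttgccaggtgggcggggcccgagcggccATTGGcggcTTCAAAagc
Cenpw: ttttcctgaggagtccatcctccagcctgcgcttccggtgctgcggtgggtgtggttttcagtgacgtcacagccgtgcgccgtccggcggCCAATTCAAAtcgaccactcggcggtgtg
Espl1: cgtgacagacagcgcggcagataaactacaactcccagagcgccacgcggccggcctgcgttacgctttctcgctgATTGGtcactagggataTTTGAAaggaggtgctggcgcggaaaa
Aurka: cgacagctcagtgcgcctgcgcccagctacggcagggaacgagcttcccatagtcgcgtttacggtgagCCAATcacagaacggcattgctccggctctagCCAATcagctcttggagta
Spc25: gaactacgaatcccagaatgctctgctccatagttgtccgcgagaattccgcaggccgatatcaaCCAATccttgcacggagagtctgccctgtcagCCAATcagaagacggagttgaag
Plk1: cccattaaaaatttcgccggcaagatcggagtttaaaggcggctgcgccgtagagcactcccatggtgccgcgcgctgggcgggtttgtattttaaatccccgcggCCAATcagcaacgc

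These stretches lie at chr4:118437344-118437463 (minus strand) for Cdc20, chr8:116921620-116921739 (plus) for Cenpn, chr10:30200541-30200660 (minus) for Cenpw and chr15:102296173-102296292 (plus) for Espl1. Those of Aurka, Spc25 and Plk1 lie at chr2:172370571-172370690 (minus), chr2:69206214-69206333 (minus) and chr7:122159315-122159434 (plus). Cdc20, Cenpn and Cenpw carried both elements before the start and were called higher after both lesions, and in Cenpw the last base of CCAAT was the first of TTCAAA. Espl1 also carried both and was called after neither. Of members not printed, Bub3 carried both before the start and was called after neither. Cenpl, also not printed, carried both before the start and was called after HS alone. Nuf2, Birc5, Mad2l1, Cenpp and Cenpb had neither element in the bases searched and were called higher after both lesions. Every member printed has a match, so those printed do not represent the module. Aurka and Spc25 each carried a pair of CCAAT boxes, beginning 51 and 19 bases before the start in Aurka and 55 and 23 in Spc25. In Aurka, Spc25 and Plk1, TTTGAA or its complement lay after the start, beyond the stretch printed. A match describes the letters only.

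Among the 13 genes of centromeric chromatin and the inner kinetochore, 11 were called higher after HS and 10 after FT at 72 h. The largest change after HS was that of Cenpm, a subunit of the constitutive centromere-associated network. It had 0.715, 0.772 and 0.959 CPM in the NI samples, 24.5, 18.1 and 11.7 after HS, and 13.1, 10.5 and 12.02 after FT. Every injured sample lay above every NI sample, and the HS samples were more spread than the FT samples. The change was 3.76 ± 0.30 after HS (adjusted p = 6.38e-09) and 3.23 ± 0.30 after FT (adjusted p = 6.93e-08).

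Cenpa, which encodes the centromeric histone itself, had 2.15, 2.32 and 1.63 CPM in NI. At 72 h it had 39.6, 25.3 and 27.1 CPM after HS and 34.9, 18.4 and 29.2 after FT, with no overlap with NI. Its change was 3.60 ± 0.29 after HS (adjusted p = 7.67e-09) and 3.43 ± 0.29 after FT (adjusted p = 1.78e-08), the largest of its role after FT. The histone-fold subunit gene Cenpw (3.33 and 2.97), Cenpn, whose product reads the CENP-A nucleosome (3.09 and 2.97), and Cenpi (3.15 and 2.70) followed on the same log2 scale. Changes of Cenph, Cenpk, Cenpp and Cenpq, further subunits of the network, lay between 1.46 and 2.49. Cenph had 0.624 ± 0.352 CPM in NI (SD, n = 3) and as few as 2 reads in an NI sample, so its change rests on few reads.

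Cenpl, the partner of Cenpn, was called after HS and not after FT. It rose from 9.14 to 10.5 CPM in NI to 18.4 to 27.6 after HS (1.15 ± 0.21, adjusted p = 2.94e-04), and was 18.5 to 21.3 CPM after FT (0.99 ± 0.21, adjusted p = 0.00136), just under the 2-fold limit. Cenpo and Cenpt were called after neither. Cenpt, which links centromeric DNA to the NDC80 complex, had 14.003, 15.8 and 12.8 CPM in NI, 29.7, 21.1 and 21.5 after HS and 23.3, 15.8 and 18.3 after FT. Its HS samples lay above NI and 1 FT sample lay within the NI range (0.73 ± 0.20, adjusted p = 0.00813 after HS; 0.40 ± 0.20, adjusted p = 0.139 after FT). For Cenpo the values were 13.5, 15.6 and 14.2 CPM in NI, 22.8, 19.3 and 20.3 after HS, and 19.7, 14.6 and 18.1 after FT. Its HS samples lay above NI and 1 FT sample within it. Its change missed the test after HS (0.51 ± 0.20, adjusted p = 0.0573) and after FT (0.26 ± 0.20, adjusted p = 0.355).

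Of the 4 genes of the kinetochore corona, the outer layer that captures microtubules and recruits checkpoint proteins, 3 were called higher after both lesions. Cenpe, a plus-end kinesin that moves chromosomes to the spindle equator, had 5.84, 3.60 and 6.33 CPM in NI, 56.5, 54.6 and 50.2 after HS, and 54.0, 65.4 and 57.8 after FT. HS and FT samples overlapped and all were far above NI (3.27 ± 0.23, adjusted p = 1.20e-09; 3.40 ± 0.23, adjusted p = 6.93e-10). Cenpf, a large microtubule-binding protein, had 8.94 to 9.14 CPM in NI, 43.6 to 46.7 after HS and 52.9 to 68.3 after FT. Here the FT samples all lay above the HS samples, but the difference of 0.40 ± 0.17 did not pass the test (adjusted p = 1.00). Zwilch, a subunit of the complex that loads dynein, changed by 2.06 ± 0.32 and 1.84 ± 0.32.

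Zwint, which ties that complex to the outer kinetochore, was the corona gene not called. It had 33.0, 25.9 and 25.9 CPM in NI, 54.4, 47.2 and 39.0 after HS, and 48.5, 49.7 and 36.1 after FT. All injured samples lay above NI, and the change was 0.72 ± 0.27 (adjusted p = 0.0563) and 0.65 ± 0.27 (adjusted p = 0.0897).

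The 5 genes of microtubule attachment were all called higher after both lesions. Spc25, of the inner end of the NDC80 complex, had 1.85, 2.19 and 2.30 CPM in NI, 54.2, 37.9 and 22.8 after HS, and 31.5, 35.3 and 25.8 after FT. Its change was 3.81 ± 0.27 after HS (adjusted p = 1.47e-09) and 3.58 ± 0.27 after FT (adjusted p = 4.48e-09). Nuf2, of the microtubule-binding end, had 2.20, 2.32 and 2.40 CPM in NI, 58.8, 33.9 and 24.6 after HS, and 40.4, 42.9 and 27.7 after FT (3.73 ± 0.34 and 3.72 ± 0.34). Neither gene's injured samples came near NI. Ndc80 itself changed by 3.24 and 2.95, and Ska1, whose complex follows shrinking microtubule ends, by 2.73 and 2.48.

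Spc24, the partner of Spc25, changed least in the NDC80 complex. It had 5.96, 7.85 and 11.8 CPM in NI, 34.5, 36.1 and 25.2 after HS, and 24.8, 11.98 and 23.2 after FT. Its HS samples lay above both other groups, whereas the lowest FT sample was next to the highest NI sample. Its change was 1.88 ± 0.33 after HS (adjusted p = 1.97e-04) and 1.17 ± 0.33 after FT (adjusted p = 0.0119), and their difference did not pass the test (−0.71 ± 0.33, adjusted p = 1.00). The FT call was lost without NI replicate 1, FT 72 h replicate 1 or FT 72 h replicate 3, where the change was as high as 1.03. With equal column totals the FT call was lost too.

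**Figure D2:**
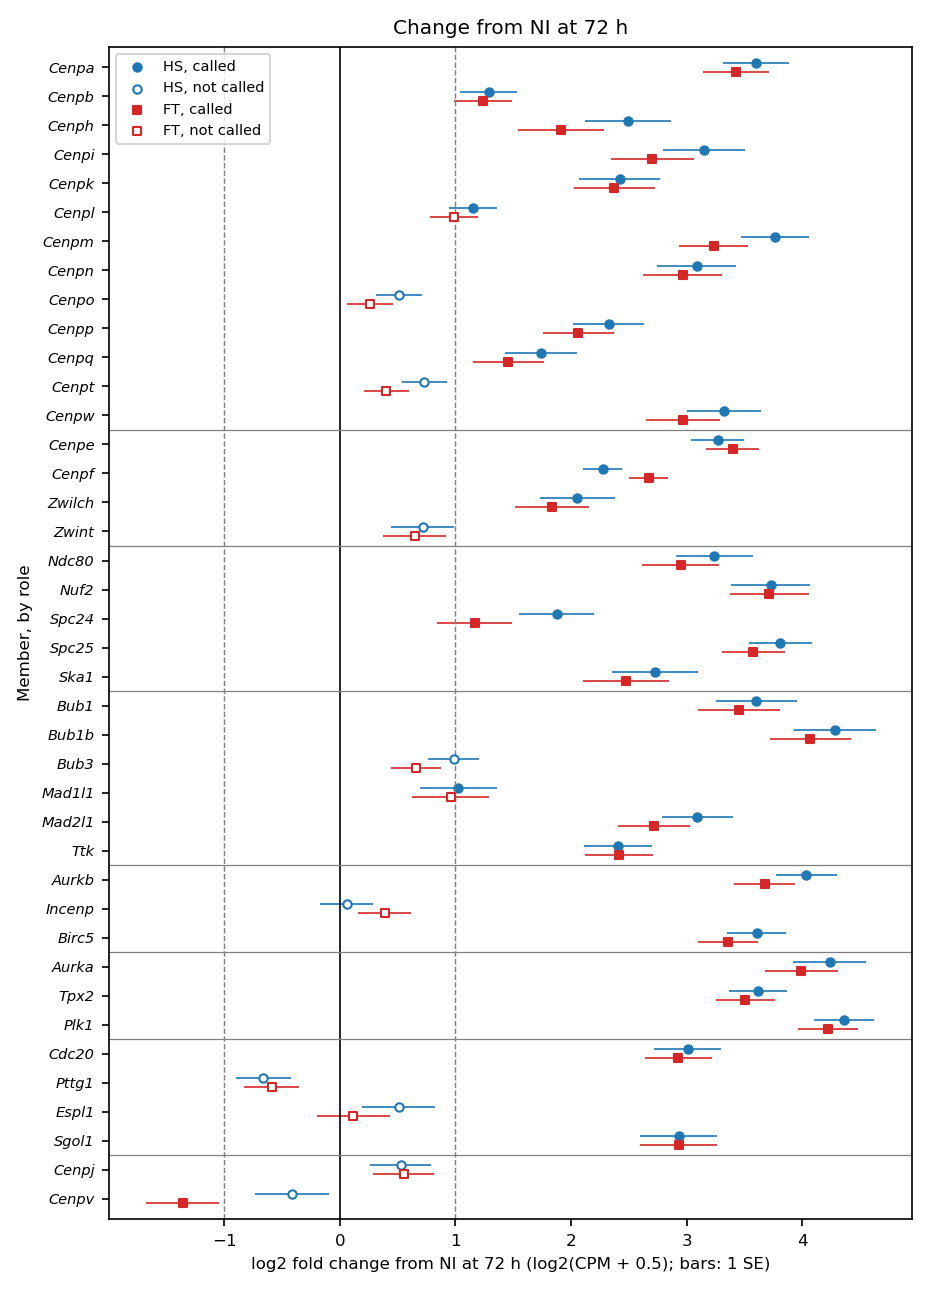
Log2 fold change from NI at 72 h of each member after HS (blue circles) and FT (red squares), with bars of 1 SE; filled symbols were called, and dashed lines mark 2-fold. Plk1 has the largest change after both lesions (4.36 and 4.23), and Pttg1 and Cenpv are the members left of 0 after both.

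Of the 6 genes of the spindle checkpoint, 5 were called higher after HS and 4 after FT. Bub1b, which encodes BUBR1 of the mitotic checkpoint complex, had 3.87, 1.80 and 3.07 CPM in NI. At 72 h it had 94.7, 51.4 and 53.1 CPM after HS and 67.3, 47.9 and 51.6 after FT, all far above NI (4.28 ± 0.35, adjusted p = 1.25e-08; 4.07 ± 0.35, adjusted p = 3.03e-08). The kinase gene Bub1 (3.60 and 3.46), the checkpoint effector gene Mad2l1 (3.09 and 2.72) and Ttk, the MPS1 kinase that starts the signal (2.41 and 2.42), were likewise called after both.

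Mad1l1 and Bub3, whose products bind MAD2 and the BUB kinases, had the highest NI levels per kb of exon among the checkpoint genes, and changed least. Mad1l1 had 26.1, 23.4 and 19.2 CPM in NI, 66.9, 41.7 and 36.7 after HS, and 59.7, 45.3 and 32.9 after FT. All injured samples lay above NI. Its change was 1.03 ± 0.33 after HS (adjusted p = 0.0262) and 0.96 ± 0.33 after FT (adjusted p = 0.0398), on either side of the 2-fold limit, and the HS call was lost without NI replicate 2, NI replicate 3 or HS 72 h replicate 1 (changes of 1.05, 0.91 and 0.77). With quantile scaling or equal column totals the HS call of Mad1l1 was lost too, with a lowest change of 0.53. Bub3 had 103, 105 and 85.9 CPM in NI, 214, 227 and 149 after HS, and 170, 143 and 152 after FT. These too lay above every NI sample, with a change of 0.98 ± 0.22 (adjusted p = 0.00191) and 0.66 ± 0.22 (adjusted p = 0.0310), both under 2-fold.

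In the chromosomal passenger complex, which corrects faulty attachments, 2 of 3 genes were called higher after both lesions. Aurkb, its kinase, had 2.44, 3.09 and 2.40 CPM in NI, 68.3, 49.9 and 38.3 after HS, and 40.2, 39.7 and 38.6 after FT (4.04 ± 0.26, adjusted p = 4.89e-10; 3.68 ± 0.26, adjusted p = 2.21e-09). Birc5, which encodes survivin, had 7.03 to 10.4 CPM in NI, 89.0 to 142 after HS and 79.4 to 117 after FT (3.61 and 3.36). Incenp, the scaffold that holds the complex together, did not follow them. It had 24.1, 22.4 and 24.1 CPM in NI and 26.4, 22.6 and 24.6 after HS, overlapping values whose difference was 0.06 ± 0.23 (adjusted p = 0.869). After FT it had 31.7, 37.1 and 25.1 CPM, all above NI (0.39 ± 0.23, adjusted p = 0.232).

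The 3 spindle genes Plk1, Aurka and Tpx2 were all called higher. Plk1, the polo-like kinase of mitotic entry and spindle assembly, had 1.49, 1.54 and 0.959 CPM in NI, 47.5, 36.4 and 28.5 after HS, and 40.3, 33.0 and 28.05 after FT. No other member changed by as much after HS (4.36 ± 0.26, adjusted p = 1.21e-10) or after FT (4.23 ± 0.26, adjusted p = 2.06e-10). Aurka, the centrosomal Aurora kinase, changed by 4.24 ± 0.32 and 3.99 ± 0.32, and Tpx2, its activator on the spindle, by 3.62 ± 0.25 and 3.51 ± 0.25.

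Genes of anaphase and cohesion release were split. Cdc20, the activator of the anaphase-promoting complex, had 1.49, 1.29 and 1.53 CPM in NI, 21.5, 11.02 and 14.4 after HS, and 18.7, 11.1 and 13.8 after FT (3.01 ± 0.29 and 2.93 ± 0.29). Sgol1, which protects centromeric cohesin until anaphase, had 1.55 to 2.01 CPM in NI, 14.4 to 21.3 after HS and 14.5 to 20.7 after FT (2.93 ± 0.34 after each). Both were called after both lesions and neither overlapped NI.

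Pttg1 and Espl1, the genes of securin and of the separase it restrains, were not called. Pttg1 had 74.1, 82.8 and 92.6 CPM in NI, 53.9, 63.4 and 41.6 after HS, and 44.9, 75.1 and 48.8 after FT. All HS samples lay below NI, and 1 FT sample lay within the NI range. Its change after HS was −0.66 ± 0.24 (adjusted p = 0.0445), under 2-fold, and after FT −0.59 ± 0.24 (adjusted p = 0.0766). With equal column totals it was called lower after both (−1.17, adjusted p = 7.63e-04; −1.06, adjusted p = 0.00194). Espl1 had 22.5, 24.7 and 18.3 CPM in NI, 31.7, 29.6 and 32.0 after HS, and 35.1, 11.1 and 33.3 after FT. Its HS samples lay above NI while the FT samples lay on both sides of it (0.51 ± 0.32, adjusted p = 0.240; 0.12 ± 0.32, adjusted p = 0.818).

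The symbol rule also took in Cenpj and Cenpv, of which the first encodes a centriole protein rather than a kinetochore subunit. Cenpj had 4.59, 6.43 and 7.87 CPM in NI, 10.2, 7.82 and 9.43 after HS, and 10.4, 7.30 and 10.5 after FT. Both groups overlapped NI and neither change passed the test (0.53 ± 0.26, adjusted p = 0.141; 0.55 ± 0.26, adjusted p = 0.131). Cenpv had 2.62, 2.57 and 2.97 CPM in NI, 1.68, 2.83 and 1.44 after HS, and 0.998, 0.584 and 0.712 after FT. All FT samples lay below the NI and HS samples, and Cenpv was the member called lower after FT (−1.36 ± 0.32, adjusted p = 0.00341), on 8, 2 and 8 reads. After HS the change was −0.42 ± 0.32 (adjusted p = 0.343), and the FT minus HS difference of −0.95 ± 0.32 did not pass the test (adjusted p = 1.00).

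**Figure D3:**
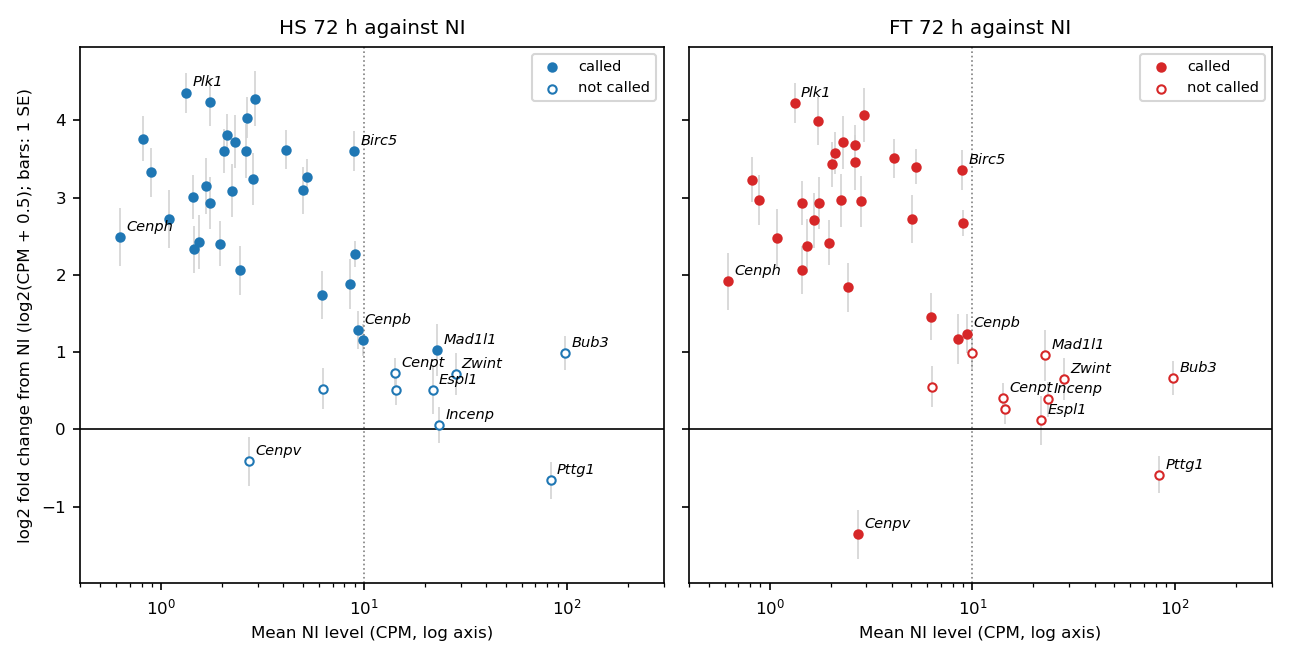
Mean NI level of each member (CPM, log axis) against its log2 fold change from NI at 72 h (± 1 SE), for HS (left) and FT (right); filled points were called, and the dotted line marks 10 CPM. Members right of the line lie at or under about 2-fold, and most members left of it lie above 2-fold.

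Members differed in their NI level as well as in their change. Of the 32 members under 10 CPM in NI, 30 were called higher after HS at 72 h and 29 after FT, where 6.76% and 6.92% of all genes at or under 10 CPM were. Of the 8 members above 10 CPM, 1 was called after HS and 0 after FT, where 11.6% and 9.46% of all genes above 10 CPM were. The NI level is also part of each change, and CPM grows with transcript length, so this split is a description. Per kb of exon, Pttg1 (47.1 ± 5.24 CPM per kb, SD, n = 3) and Bub3 (21.9 ± 2.32) had the highest NI levels, and Mad1l1 (8.67 ± 1.32), Cenpt (7.83 ± 0.852), Zwint (7.59 ± 1.10) and Incenp (7.24 ± 0.299) followed, each differing from the next by less than their spread. At 72 h after HS the order per kb was Bub3 (43.9 ± 9.24), Birc5 (33.8 ± 7.74), Pttg1 (30.0 ± 6.19) and Aurkb (26.7 ± 7.74), and from Birc5 on, neighbours differed by less than their spread.

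Samples within a group differed in their summed level at 72 h. Summed over the 40 members, the level was 415 to 423 CPM in NI, 1126, 1375 and 1761 CPM in the HS samples at 72 h and 1126, 1273 and 1343 CPM in the FT samples. HS replicate 1, the deepest of the 20 libraries, had the highest value of its group for 26 of the 29 members called after both lesions, and HS replicate 3 the lowest for 22. FT replicate 3 had the lowest value of its group for 20 of the 29. The highest FT value was in replicate 1 for 16 members and in replicate 2 for 12. How often these libraries were highest or lowest over all genes was not examined.

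HS and FT were compared directly to ask whether lesion severity changed the module. At 72 h, 0 of the 40 members differed between them by limma (0.0% of all genes), by either edgeR test or by DESeq2, and 3 members (505 of all genes) had an unadjusted p under 0.05. The log2 difference, FT minus HS, ran from −0.95 ± 0.32 for Cenpv to 0.40 ± 0.17 for Cenpf. It was below 0 for 34 members and above 0 for 6, where 47.7% of all genes were above 0. Its median was −0.21, beside −0.01 over all genes. HS replicate 1 had the highest summed level at 72 h (1761 CPM), and its part in this shift was not tested. At 1 week 0 members differed (0.0% of all genes; 2 members and 724 of all genes at an unadjusted p under 0.05), with log2 differences from −0.56 to 0.73. At 2 weeks 0 members differed (0.0%; 3 members and 438 genes), with differences from −0.78 to 0.71. DESeq2 and both edgeR tests called 0 members at these times too. Of all genes, the edgeR likelihood ratio test called 8 at 1 week and 1 at 2 weeks. DESeq2 called 7 and 1, and the edgeR quasi-likelihood test 0 at both times. The SE of a member's log2 difference was 0.17 to 0.42, and a difference that misses the test does not show that the lesions acted alike.

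From 72 h to 1 week the module fell. After HS 29 members were called lower and 0 higher (4.07% and 1.95% of all genes), and after FT 29 lower and 0 higher (2.62% and 0.827%), with a median log2 change of −2.37 and −2.52 beside 0.07 and 0.03 over all genes. From 72 h to 2 weeks 28 were called lower after HS (3.37% of all genes) and 28 after FT (2.68%), and Cenpv was called higher after FT (1.18; 1.13% of all genes). Plk1, for example, fell to 1.91 and 1.32 CPM at 1 week after HS and to 2.22, 2.40 and 1.42 after FT, next to its NI values of 0.959 to 1.54. Its change from 72 h was −4.15 ± 0.29 after HS (adjusted p = 5.60e-09) and −3.78 ± 0.26 after FT (adjusted p = 3.48e-09). Incenp, which had not passed the test at 72 h, was called lower at 1 week than at 72 h after FT (−1.16 ± 0.23, adjusted p = 0.00315), with 19.3, 9.28 and 13.9 CPM.

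Between 1 and 2 weeks 0 members differed after HS (0.0119% of all genes) or FT (0.0714%), with 2 and 3 members (789 and 773 of all genes) at an unadjusted p under 0.05, and both edgeR tests and DESeq2 called 0 members as well. The change from 72 h to 1 week differed between FT and HS for 0 members (0.0% of all genes), as did that from 72 h to 2 weeks (0.0%), with 3 and 4 members (661 and 435 of all genes) at an unadjusted p under 0.05 and 0 called by the other tools. Over the 29 members called after both lesions at 72 h, the share of the rise in CPM still present was taken. Its median was 2.51% at 1 week and 4.39% at 2 weeks for HS, with 1.87% and 2.64% for FT. These members were chosen by their 72 h call and the 72 h rise is the divisor, so low shares are favored.

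**Figure D4:**
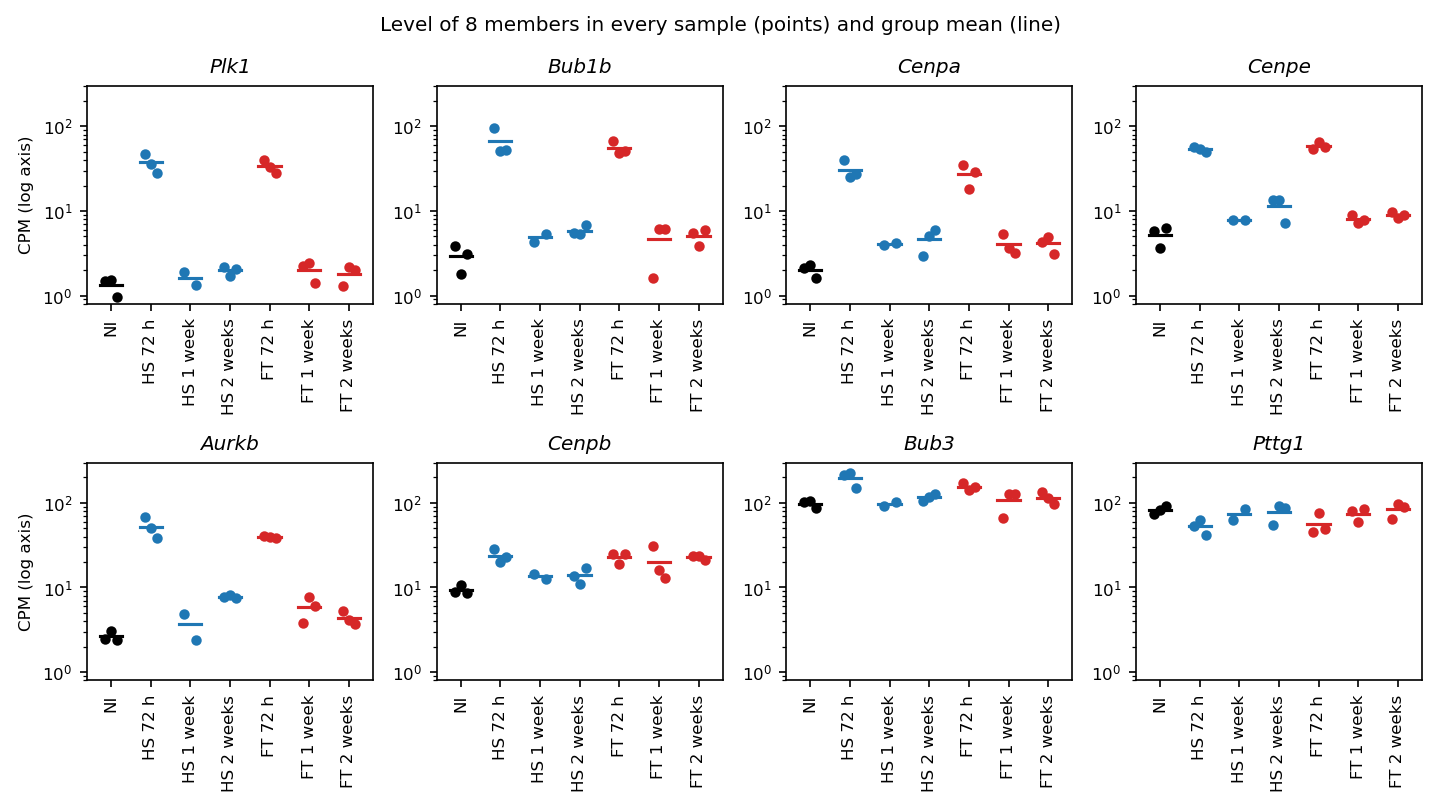
CPM (log axis, same range in each panel) of 8 members in every sample, with a point per sample and a line at the group mean, for NI (black), HS (blue) and FT (red). Plk1, Bub1b, Cenpa, Cenpe and Aurkb are high in the 72 h samples and near NI later, Cenpb at 2 weeks after FT is level with 72 h, Bub3 is above NI in all 72 h samples and Pttg1 is lower in 5 of the 6 samples at 72 h than in any NI sample.

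Against NI, 0 members were called higher at 1 week after HS (1.7% of all genes) or after FT (2.86%), with 3 and 6 members (2147 and 3060 of all genes) at an unadjusted p under 0.05. At 2 weeks 3 were called higher after HS (2.43% of all genes) and 1 after FT (3.53%). The HS samples lay above all NI samples for 8 members at 1 week (20.2% of all genes) and for 14 at 2 weeks (14.5%), and the FT samples for 6 (11.4%) and 7 (17.3%). In HS, 31 members had a change above 0 at 1 week and 33 at 2 weeks (52.5% and 49.5% of all genes). In FT, 28 and then 26 members did (47.3% and 47.9%). The median member changed by 0.23, then 0.28 in HS, and by 0.09, then 0.21 in FT. Medians of all genes ran from −0.03 to 0.02. With equal column totals the member medians were 0.05, 0.02, −0.20 and −0.15 in that order. Those of all genes were −0.17, −0.29, −0.32 and −0.36.

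The 3 members called at 2 weeks after HS were Aurkb, Cenpe and Cenpa. Aurkb had 7.64, 8.12 and 7.49 CPM, all above the NI range of 2.40 to 3.09 (1.398 ± 0.264, adjusted p = 0.00182), and 4.90 and 2.41 CPM at 1 week. After FT it had 3.78, 7.66 and 6.07 CPM at 1 week (0.97, adjusted p = 0.0267, under 2-fold) and 5.24, 4.09 and 3.74 at 2 weeks (0.62 ± 0.26, adjusted p = 0.185). The call after HS held in all alternatives. Cenpe had 13.4, 13.5 and 7.13 CPM at 2 weeks after HS, against 3.60 to 6.33 in NI (1.02 ± 0.23, adjusted p = 0.00901), and lost the call in 6 of 18 alternatives, among them those without NI replicate 2, HS 2 weeks replicate 1 or HS 2 weeks replicate 2 (changes of 0.79, 0.88 and 0.87). Cenpa had 2.96, 5.13 and 6.04 CPM against 1.63 to 2.32 in NI (1.00 ± 0.29, adjusted p = 0.0454), and lost it in 10 of 18, among them those without any 1 NI sample (0.88 to 1.08), HS 2 weeks replicate 2 (0.92) or HS 2 weeks replicate 3 (0.81).

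Cenpb, whose product binds a short motif in centromeric satellite DNA, had a 2-week level after FT within its 72 h range. It had 8.94, 10.7 and 8.54 CPM in NI, and at 72 h 28.3, 19.98 and 22.96 after HS and 25.2, 18.7 and 24.8 after FT (1.29 ± 0.25, adjusted p = 5.82e-04; 1.24 ± 0.25, adjusted p = 9.44e-04). At 2 weeks it had 23.8, 23.8 and 20.9 CPM after FT (1.24 ± 0.25 from NI, adjusted p = 0.00213), and 13.6, 11.1 and 17.2 after HS (0.53 ± 0.25, adjusted p = 0.294). The samples of the 2 lesions did not overlap, but their log2 difference of 0.71 did not pass the test (adjusted p = 1.00). Of its 72 h rise, 99.3% was left at 2 weeks after FT and 31.7% after HS, the highest share of the 29 members in each. With equal column totals its change was 0.80 and 0.79 at 72 h and 0.86 at 2 weeks after FT, and none was called.

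At 1 week after FT Cenpb had 30.8, 16.1 and 13.1 CPM (0.96, adjusted p = 0.0192, under 2-fold), and replicates 2 and 3 lay below all FT samples at 72 h. Replicate 1, the highest, stood apart from its group over all genes, with a variance 104 and 103 times the counting noise against its partners, where the other pairs of replicates had 10.7 to 58.0 times. Without that sample Aurkb was called and Cenpb was not, and without replicate 2, replicate 3 or NI replicate 2 Cenpb was called.

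Other genes of the same machinery were taken from lists, and the largest rises after HS at 72 h, at most 2 for each list, are named. Of 24 further kinetochore genes measured, 16 were called higher after HS and 14 after FT, and 0 lower. As above, 9.08% and 8.14% of all genes were called higher, and the median of all genes after HS was −0.11. The largest change after HS was that of Cdca8, the borealin of the chromosomal passenger complex (2.48 CPM in NI, 65.2 after HS, 4.44 ± 0.37). Of 8 condensin genes, 6 were called higher after both lesions, led by Ncapg (3.74 ± 0.29) and Ncapd2 (3.00 ± 0.27). Of 15 cohesin genes 3 were, led by Cdca5, which encodes sororin (3.97 ± 0.29), and Esco2, a cohesin acetyltransferase (3.24 ± 0.27), with a list median of 0.10 after HS. Of 18 genes of the anaphase-promoting complex and its regulators 4 were, led by the E2 enzyme gene Ube2c (4.34 ± 0.28) and the inhibitor gene Fbxo5 (2.58 ± 0.31), with a median of 0.50. Of 17 genes of the cell cycle at large, 13 were called higher after both, led by Rrm2, for nucleotide synthesis (5.29 ± 0.32), and Ccnb1, which encodes cyclin B1 (4.95 ± 0.31). No gene of these lists was called lower at 72 h.

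The profile of each gene over the 20 samples was set beside the mean z-score of the 29 members called after both lesions. This is a description, as the points share groups and the 72 h samples set most of the likeness. Outside the module the 10 genes most like it were Pbk (Pearson r = 0.993), 2810417H13Rik, Kif4, Uhrf1, Tk1, Cdca3, Dlgap5, Knstrn, Dtl and C330027C09Rik (0.986). Pbk, a mitotic kinase gene, averaged 3.04 CPM in NI, 115 after HS at 72 h and 83.7 after FT at 72 h. Tk1, the thymidine kinase of DNA synthesis, averaged 5.23, 97.7 and 72.1 CPM. Within the module the profiles least like the mean were those of Pttg1 (r = −0.65), Cenpv (−0.39), Espl1 (0.42) and Cenpo (0.54). These were not among the 29 members that make up that mean, whereas each of the 29 is compared with a mean that includes it.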

How the data were processed

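The authors removed reads containing adapters with FASTX, mapped reads with TopHat2 2.0.9 to mm10, counted them per gene with HTSeq 0.5.4p3, kept genes with at least 10 counts in at least 2 replicates and normalized with edgeR 3.3.6. The deposited signal was read as counts scaled to an effective library size (CPM), inferred from its values; strandedness and sequencing batches are not given in the sources used here. 100% of 336200 values were whole reads within 0.001 step, and column totals were lower in NI (777426 to 830481 CPM) than after injury (878070 to 1202186 CPM).

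All 20 samples were grouped by their titles. limma 3.58.1 (R 4.3.3, intensity trend) was fitted to log2(CPM + 0.5) with 1 mean per group, and tested on simulated data. Alternatives were 0.1 or 1 CPM added, at least 1 CPM in 2 samples, only the samples compared, other scalings, no fold limit, a replicate block, count tests on the recovered reads (edgeR 4.0.16, DESeq2 1.42.0), and every sample omitted in turn. Low genes have understated folds. Read limits cover counting error only. The module, its role and pathway lists and the marker lists were chosen with earlier results of these data known. Values in every sample are given for the largest change and the uncalled members of each role. For pathway lists, the 2 largest rises after HS at 72 h are named (no fall was called; 1 of these genes is not reported here), and the 10 most alike genes by Pearson r. Cenpb, Cenpa, Spc24 and others were described further after their values were seen. Exon lengths and gene positions came from GENCODE vM21.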

Additional observations from a re-analysis of the deposited data

How the results depend on the processing

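At 72 h 28 to 33 members were called higher after HS and 27 to 32 after FT over 12 alternatives, and 30 to 32 and 28 to 30 when a sample was left out. Members lower at 1 week than at 72 h numbered 27 to 30 after HS and 27 to 30 after FT. Those lower at 2 weeks numbered 28 to 31 and 27 to 29, and 28 to 28 and 26 to 27 when a sample was left out. Comparisons of FT with HS, of 2 weeks with 1 week and of changes over time gave 0 throughout, as did HS at 1 week against NI. At 2 weeks after HS the count fell from 3 to 1 with 1 CPM added, with only the samples compared and with equal column totals, and was 1 to 2 when a sample was left out (1 without NI replicate 2 or HS 2 weeks replicate 2). At 1 week after FT it rose from 0 to 1 with 0.1 CPM added, 2 with no fold limit, 2 with edgeR quasi-likelihood, and 3 with quantile scaling, edgeR likelihood ratio and DESeq2, and was 0 to 1 when a sample was left out. At 2 weeks after FT it was 0 with equal column totals, 2 with quantile scaling, no fold limit, edgeR likelihood ratio and DESeq2, and 1 when any sample was left out. The cause was not tested. Equal column totals moved the median of all genes at 72 h to −0.52 after HS and −0.48 after FT, and the median of the members to 2.24 and 2.17. Of 65 pairs of a called member and a comparison with NI, 57 kept the call in every fit, 8 lost it at least once and 0 reversed; 5 of the 8 were at 72 h (Cenpb after both lesions, Cenpl and Mad1l1 after HS, Spc24 after FT).

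The replicate numbers did not pair the samples: same-numbered samples had correlations of −0.39 to 0.38 (median −0.0017), and 8 of 20 samples correlated best with their own number. With the replicate block 31 and 29 members were called higher at 72 h after HS and FT, and 2 rather than 3 at 2 weeks after HS. Genes at low counts limit precision: the shallowest library allowed 0.876 CPM for 3 reads.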
